A study of Homo sapiens with 12 samples.

Results

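The genes described here are 8 genes of cytosolic DNA sensing, CGAS, STING1, TBK1, IRF3, TREX1, AIM2, IFI16 and ZBP1, taken by symbol from the 58174 genes listed for each cell line. All 8 were found, STING1 under the identifier whose older symbol is TMEM173. They were measured by mRNA-seq in 2 established human glioblastoma cell lines, U87 (U-87 MG) and U118 (U-118 MG), with 3 libraries in each of 4 groups. U87 sensitive and U118 sensitive cells were the control cells of each line, and U87 resistant and U118 resistant cells were aggregation cells that formed from growth-retarded cells after weeks of treatment with 50 μM temozolomide (TMZ), an alkylating drug. According to the methods of the study, all cells derived from the CD133- CD15- fraction of the lines and were grown with serum and BMP2. Values are TPM, which are scaled for transcript length and to a total of 1000000 in each library, so levels of different genes can be set side by side but the read depth is unknown.

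DNA is normally kept in the nucleus and mitochondria, and DNA in the cytosol is read as a sign of infection or damage. CGAS binds such DNA and makes the messenger cGAMP, which activates STING1 on the endoplasmic reticulum, and STING1 then recruits the kinase TBK1, which phosphorylates the transcription factor IRF3 to switch on interferon genes. TREX1 is the exonuclease that removes cytosolic DNA, AIM2 and IFI16 are DNA-binding sensors of the PYHIN family, and ZBP1 binds Z-form nucleic acids and can start necroptosis. Reduced activity of the CGAS-STING1 pathway is known from many gliomas.

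Before the values of the 8 genes are given, the libraries labelled U118 resistant need a description, since they were closer to U87 than to U118. Of 82 genes at 10 TPM or more in all U87 libraries and below 1 TPM in all U118 sensitive libraries, 48 were at 10 TPM or more in all 3 libraries labelled U118 resistant. Of 152 genes with the opposite pattern, 107 were below 1 TPM in all 3 of them and 7 were at 10 TPM or more. Spearman's rho across genes, which are not independent replicates, was 0.814 to 0.831 between libraries labelled U118 resistant and U118 sensitive, and 0.866 to 0.872 between those labelled U118 resistant and U87 sensitive. Libraries within a group had a rho of 0.902 to 0.924. Any difference between the 2 U118 groups therefore cannot be told apart from this difference in line-specific genes, and the libraries labelled U118 resistant were also set against both U87 groups. The share of TPM from mitochondrially encoded genes was 12.9% to 16.9% in U87 sensitive, 22.2% to 23.7% in U87 resistant, 7.42% to 19.8% in U118 sensitive and 13.2% to 29.9% in libraries labelled U118 resistant, and its part in the results below was not tested beyond the values computed without these genes. The glioma line markers VIM, CD44 and NES were detected in all libraries, whereas GFAP, S100B and SOX2 stayed below 1 TPM. The marker CHI3L1 was at 34.5 to 67.0 TPM in U87 and at 1.14 to 1.85 TPM in U118 sensitive libraries. It was at 2.20 to 5.88 TPM in libraries labelled U118 resistant, and so stayed apart from U87. OLIG2 was at 1.45 to 4.45 TPM in U87 and at most 0.0525 TPM in U118 sensitive libraries. In libraries labelled U118 resistant it lay between these, at 0.57 to 1.05 TPM. The leukocyte marker AIF1 was at 0 in all 12 libraries and PTPRC was at most 0.0689 TPM. The summed level of the 8 leukocyte markers was 6.15 to 7.54 TPM in U87 sensitive, 6.08 to 6.38 in U87 resistant, 2.02 to 2.3 in U118 sensitive and 10.8 to 17.4 in libraries labelled U118 resistant, most of it CSF1R. No library listed any of 11 housekeeping genes at 0.

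The promoters of AIM2 and TREX1 are shown because these 2 genes had the larger rises among the 8 from U118 sensitive libraries to those labelled U118 resistant. In U87, TREX1 had no rise. The promoters of IFI16 are shown because it is the PYHIN neighbour of AIM2. On GRCh38, IFI16 (ENSG00000163565) lies on chromosome 1 at chr1:158999968-159055155 on the plus strand, and AIM2 (ENSG00000163568) at chr1:159062484-159147096 on the minus strand, with 7328 bases between them. TREX1 (ENSG00000213689) lies at chr3:48465811-48467645 on the plus strand. The sequences are RefSeq windows on GRCh38.p14, each 300 bases long, from 250 bases before to 50 bases after an annotated start site, and 4 of the 8 genes had at least 1 window in the table used. Capitals mark matches to the interferon-stimulated response element core (GAAA, any 2 bases, GAAA) or to the AP-1 site TGANTCA, both searched on both strands. The windows, read in the direction of the gene, are chr1:159076717-159077016 (minus strand) for AIM2, chr3:48465580-48465879 (plus strand) for TREX1, and chr1:159008741-159009040 and chr1:159009657-159009956 (plus strand) for the IFI16 windows 1 and 2.
AIM2: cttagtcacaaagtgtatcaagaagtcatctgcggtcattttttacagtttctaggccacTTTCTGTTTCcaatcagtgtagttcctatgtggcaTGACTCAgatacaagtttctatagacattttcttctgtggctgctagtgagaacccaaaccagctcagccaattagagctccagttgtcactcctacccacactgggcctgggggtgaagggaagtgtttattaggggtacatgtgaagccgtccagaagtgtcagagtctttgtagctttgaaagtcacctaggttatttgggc
TREX1: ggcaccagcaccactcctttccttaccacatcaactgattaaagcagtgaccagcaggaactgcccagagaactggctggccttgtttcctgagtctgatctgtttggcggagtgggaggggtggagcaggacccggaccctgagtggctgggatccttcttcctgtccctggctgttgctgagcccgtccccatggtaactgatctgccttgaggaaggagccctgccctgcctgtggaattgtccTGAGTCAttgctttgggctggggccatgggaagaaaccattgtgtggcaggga
IFI16 window 1: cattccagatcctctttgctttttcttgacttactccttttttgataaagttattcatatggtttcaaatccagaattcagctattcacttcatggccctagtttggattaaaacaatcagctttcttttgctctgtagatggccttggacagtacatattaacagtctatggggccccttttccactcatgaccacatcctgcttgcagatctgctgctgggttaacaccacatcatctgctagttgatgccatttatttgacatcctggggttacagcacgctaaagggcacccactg
IFI16 window 2: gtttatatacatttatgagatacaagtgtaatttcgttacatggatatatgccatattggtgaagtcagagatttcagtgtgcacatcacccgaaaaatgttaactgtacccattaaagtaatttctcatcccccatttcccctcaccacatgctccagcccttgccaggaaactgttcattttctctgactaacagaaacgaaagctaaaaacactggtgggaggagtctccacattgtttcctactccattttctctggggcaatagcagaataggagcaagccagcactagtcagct

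The AIM2 window held 1 match to the interferon-stimulated response element core, TTTCTGTTTC on the gene's strand, from base 61 to base 70 of the window, and 1 AP-1 match, TGACTCA, from base 96 to base 102. The TREX1 window held 1 AP-1 match, TGAGTCA, from base 248 to base 254, which spans the start site. The IFI16 windows and the TBK1 window held no match to either. The gamma-activated site core TTCNNNGAA and the NF-kappa B site (GGGA, any 2 bases, TTCC) had no match in any of these 5 windows. Across all 35116 promoter windows of this length, 3.57% held the response element core, 7.71% the AP-1 site, 7.66% the gamma-activated site core and 1.61% the NF-kappa B site. These matches describe the letters of the windows and do not show that a factor was bound.

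The 8 genes differed widely in level (the plot of TPM by library). IRF3 and IFI16 were the most abundant, at 34.2 to 60.2 TPM and 21.9 to 60.5 TPM over the 12 libraries. TBK1 at 7.79 to 21.4 TPM and TREX1 at 3.54 to 15.5 TPM followed, and STING1 at 1.74 to 6.98 TPM and AIM2 at 0 to 4.62 TPM were low. ZBP1 was listed at 0 in all 12 libraries and CGAS in 10 of them, so that the enzyme at the head of the pathway was nearly undetected while the adaptor, the kinase and the transcription factor below it were present.

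**Figure D1:**
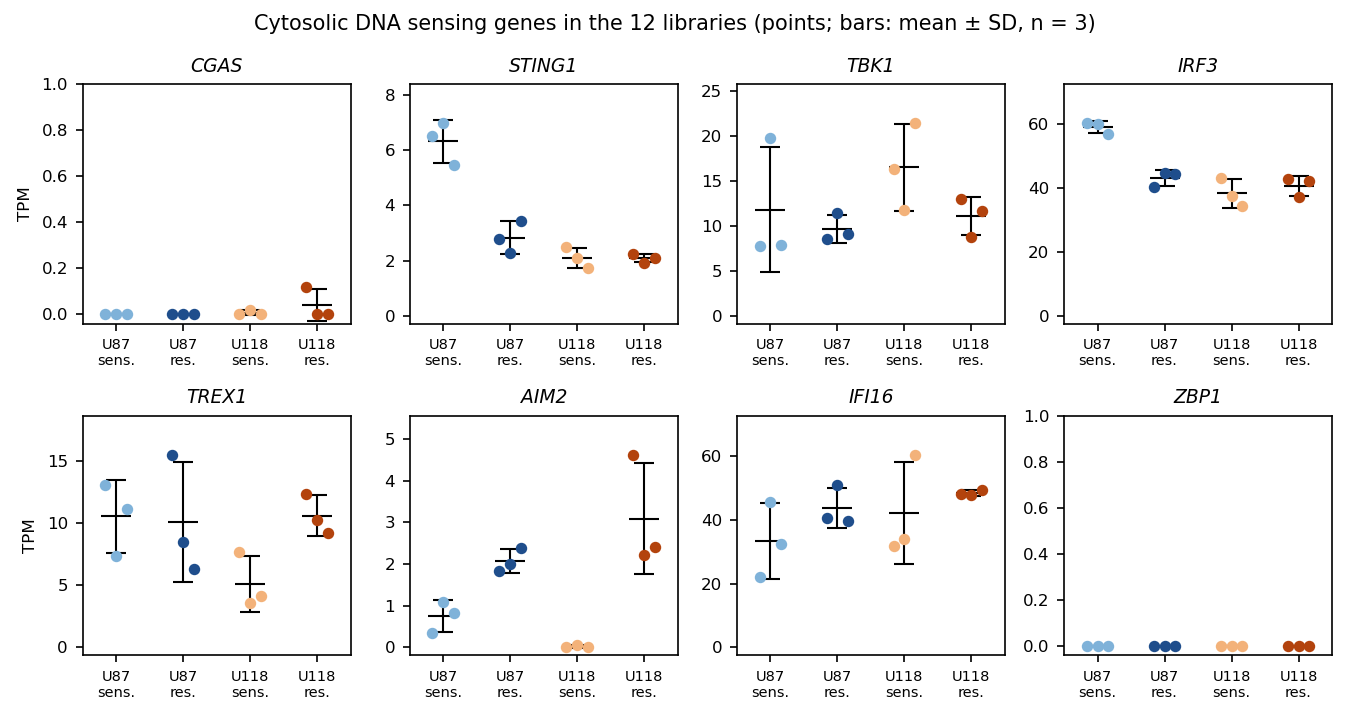
TPM (vertical axis, linear, a separate scale in each panel) of the 8 genes in the 12 libraries, 1 point per library, with the group mean and SD (n = 3) as bars. STING1 and IRF3 are highest in U87 sensitive cells, AIM2 is near 0 in U118 sensitive cells and at 2.22 TPM or more in libraries labelled U118 resistant, and CGAS and ZBP1 stay at or near 0.

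Resistant and sensitive cells were compared within each line with limma on log2(TPM + 1), over genes at 1 TPM or more in at least 3 of the 6 libraries, and a gene was called where the Benjamini-Hochberg adjusted p was under 0.05 and the log2 fold change was 1 or more in either direction. All adjusted p-values are from limma over all genes tested, fold changes are on the same scale, on which the change of low genes is understated, and a standard error (SE) follows a fold change. In U87, none of the 6 genes tested was called, against 10.8% of the 13845 genes tested; 3 of the 6 had an adjusted p under 0.05 (background 39.1%) and the same 3 an unadjusted p under 0.05, and none was called by limma without a trend. The groups did not overlap for 3 of 6 (background 53.4%). Among these 3, AIM2 passed the filter through the resistant libraries, where it was high. In U118, 1 of 6 was called, AIM2, against 35.3% of 15527 genes tested, and 2 of 6 had an adjusted p under 0.05 (background 51.3%), the same 2 whose groups did not overlap (background 58.6%). The share of called genes was below the background in both lines, and with 6 genes each of these shares is coarse. Over all genes tested, the log2 fold change had a median of -0.24 for U87 and -0.52 for U118, and median-ratio scaling of the libraries moved these medians to -4.7e-05 and -0.06. The split of calls moved with it, from 419 higher and 1078 lower to 689 and 528 in U87, and from 1341 and 4134 to 2258 and 2113 in U118. The value of each gene relative to the all-gene median is therefore also given where the gene is described. Library 1 labelled U118 resistant had 15193 genes at 1 TPM or more and a mitochondrial share of 13.2%. Libraries 2 and 3 had 13270 and 13545 genes and shares of 29.9% and 26.1%. Without library 1 the U118 median was -0.76, with 767 calls higher and 5627 lower. Without library 2 or 3 it was -0.44 or -0.49. CGAS and ZBP1 did not pass the filter in either line. For 3 libraries against 3 the smallest two-sided p of an exact permutation test is 0.1, and it was not used for single genes.

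CGAS, the sensor that makes cGAMP, lies at chr6:73413515-73452276 on the minus strand (ENSG00000164430). It was listed at 0 in all 6 U87 libraries, in U118 sensitive libraries 1 and 3 and in libraries 2 and 3 labelled U118 resistant. The remaining values were 0.0188 TPM in U118 sensitive library 2 and 0.12 TPM in library 1 labelled U118 resistant. A difference between groups was not detectable at these levels, and the depth behind them is not known.

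STING1, the adaptor that cGAMP activates, lies at chr5:139475534-139482935 on the minus strand (ENSG00000184584). It was at 6.50, 6.98 and 5.47 TPM in U87 sensitive libraries and at 2.80, 2.27 and 3.43 TPM in U87 resistant libraries. All 3 resistant libraries lay below all 3 sensitive libraries, and the mean in resistant cells was 44.8% of that in sensitive cells. The log2 fold change was -0.94 (SE 0.17, adjusted p = 0.00583), just short of the fold threshold, and -0.69 relative to the median of all genes. It lay between -1.14 and -0.72 over the alternative settings, with an adjusted p of at most 0.0332, and passed the fold threshold in 3 of the 12 settings that kept one. In U118, STING1 was at 2.48, 2.10 and 1.74 TPM in sensitive libraries and at 2.24, 1.93 and 2.10 TPM in those labelled resistant. These groups overlapped, and the difference was -0.0016 with a 95% confidence interval of -0.45 to 0.44 (adjusted p = 0.995), or 0.52 relative to the median of all genes. The effect in U118 exceeded that in U87 by 0.94 in the joint fit of the 12 libraries (SE 0.25, adjusted p = 0.0114), short of the fold threshold. U87 sensitive cells thus had the highest STING1 of the 4 groups, and the other groups overlapped with their neighbours in the order of levels.

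TBK1, the kinase that STING1 recruits, lies at chr12:64451880-64502108 on the plus strand (ENSG00000183735). It was at 7.79, 19.8 and 7.84 TPM in U87 sensitive libraries and at 8.50, 11.4 and 9.09 TPM in U87 resistant libraries. U87 sensitive library 2 was the highest of the 6 and the other sensitive libraries were the lowest, so the groups overlapped. The log2 fold change of -0.15 (SE 0.35, adjusted p = 0.764), or 0.10 relative to the median of all genes, became 0.26 without that library. In U118 TBK1 was at 16.3, 11.8 and 21.4 TPM in sensitive libraries and at 12.9, 8.71 and 11.6 TPM in those labelled resistant, a log2 fold change of -0.51 (SE 0.28, adjusted p = 0.151). That value was 0.01 relative to the median of all genes.

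IRF3, the transcription factor that TBK1 phosphorylates, lies at chr19:49659569-49665875 on the minus strand (ENSG00000126456). It was at 60.2, 59.8 and 56.9 TPM in U87 sensitive libraries and at 40.3, 44.6 and 44.4 TPM in U87 resistant libraries. The groups did not overlap, and the log2 fold change was -0.45 (SE 0.08, adjusted p = 0.00581), or -0.20 relative to the median of all genes. Under median-ratio scaling the value was -0.17 with an adjusted p of 0.324, so the test was not passed when libraries were placed on that scale. In U118 it was at 42.9, 37.5 and 34.2 TPM in sensitive libraries and at 42.6, 37.0 and 42.0 TPM in those labelled resistant, which overlapped (log2 fold change 0.09, SE 0.20, adjusted p = 0.739). Relative to the median of all genes this value was 0.61. Median-ratio scaling gave 0.59 there, with an adjusted p of 0.0287. The effects in the 2 lines differed by 0.53 (SE 0.19, adjusted p = 0.0431), short of the fold threshold. IRF3 shares 734 bases with BCL2L12 on the opposite strand, whose values in U87 were 58.7 to 61.0 TPM in sensitive and 37.8 to 45.0 TPM in resistant libraries. Strand was not stated for these libraries, so reads of the shared bases could have come from either gene.

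TREX1, the exonuclease that clears cytosolic DNA, was at 13.1, 7.35 and 11.1 TPM in U87 sensitive libraries and at 15.5, 8.49 and 6.27 TPM in U87 resistant libraries. The U87 groups overlapped (log2 fold change -0.11, SE 0.33, adjusted p = 0.826), and the value was 0.14 relative to the median of all genes. In U118 it was at 7.69, 3.54 and 4.11 TPM in sensitive libraries and at 12.3, 10.2 and 9.17 TPM in those labelled resistant. The U118 groups did not overlap, and the mean in libraries labelled resistant was 2.07 times that in sensitive libraries. The log2 fold change was 0.97 (SE 0.30, adjusted p = 0.0226), just short of the fold threshold, and 1.5 relative to the median of all genes. Without U118 sensitive library 2 or library 3 the adjusted p was 0.101 or 0.0841, and with no filter on low values it was 0.0595. Under median-ratio scaling the value was 1.42 (adjusted p = 0.00181) and TREX1 was called. The difference of the effect between the lines, 1.08 (SE 0.47), had an adjusted p of 0.0877. TREX1 lies wholly within ATRIP on the same strand, sharing 1835 bases, so the division of reads between the 2 genes is uncertain. ATRIP was at 20.6, 5.22 and 23.3 TPM in U118 sensitive libraries and at 15.5, 7.32 and 1.35 TPM in those labelled resistant. Its groups overlapped, and within each of the 2 U118 groups ATRIP and TREX1 shared the library in which they were lowest, which was not so in either U87 group.

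AIM2, the sensor that assembles an inflammasome on DNA, was at 0.347, 1.09 and 0.813 TPM in U87 sensitive libraries and at 1.83, 2.01 and 2.38 TPM in U87 resistant libraries. All resistant libraries were above all sensitive ones, and the means differed 2.76-fold. The log2 fold change was 0.83 (SE 0.19, adjusted p = 0.0142), below the fold threshold, and 1.08 relative to the median of all genes. Only sensitive library 2 reached 1 TPM, beside all resistant libraries, so AIM2 passed the filter in U87 through the resistant libraries, where it was high. With no filter on low values its adjusted p was 0.0528, so the test was not passed without that selection. The adjusted p was 0.0568 without U87 resistant library 3. In U118, AIM2 was listed at 0 in sensitive libraries 1 and 3 and at 0.0566 TPM in library 2, and was at 4.62, 2.22 and 2.42 TPM in the libraries labelled resistant. It was called higher, with a log2 fold change of 1.96 (SE 0.23, adjusted p = 0.000176) that depends on the pseudocount and reached 4.70 with a pseudocount of 0.1. It was 2.48 relative to the median of all genes. AIM2 passed the filter in U118 only through the libraries labelled resistant, so it had to be higher there to be tested. With no filter its adjusted p was 0.00482. Leaving out any of those 3 libraries placed it below the filter, so it was then not tested. The effect in U118 exceeded that in U87 by 1.13 (SE 0.31, adjusted p = 0.0127), and AIM2 was the only one of the 6 called in this joint fit, where 30.5% of 16382 genes were called. An adjusted p under 0.05 for this difference was reached by 3 of 6, AIM2, STING1 and IRF3 (background 38.1%). The pseudogene RAD1P2 lies within AIM2 and was at most 0.139 TPM.

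IFI16, the other PYHIN sensor, was far more abundant than AIM2. It was at 21.9, 45.6 and 32.5 TPM in U87 sensitive libraries and at 40.5, 51.0 and 39.8 TPM in U87 resistant libraries. Sensitive library 2, which was also high in TBK1, lay within the resistant range, and the other sensitive libraries lay below it. The log2 fold change was 0.43 (SE 0.25, adjusted p = 0.219), or 0.68 relative to the median of all genes. Without that library it was 0.68 with an adjusted p of 0.0318. Median-ratio scaling gave 0.71 (adjusted p = 0.0324). In U118 it was at 31.7, 34.1 and 60.5 TPM in sensitive libraries and at 48.1, 47.7 and 49.4 TPM in those labelled resistant, where sensitive library 3 was the highest of all (log2 fold change 0.26, SE 0.27, adjusted p = 0.439, and 0.78 relative to the median of all genes). The neighbour of AIM2 thus had 95% confidence intervals of -0.17 to 1.03 in U87 and -0.35 to 0.86 in U118, which include no difference as well as a rise.

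ZBP1, the sensor of Z-form nucleic acids, lies at chr20:57603846-57620576 on the minus strand (ENSG00000124256). It was listed at 0 in all 12 libraries, and no comparison could be made. RIPK3, the kinase through which it starts necroptosis, was also listed at 0 in all 12.

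**Figure D2:**
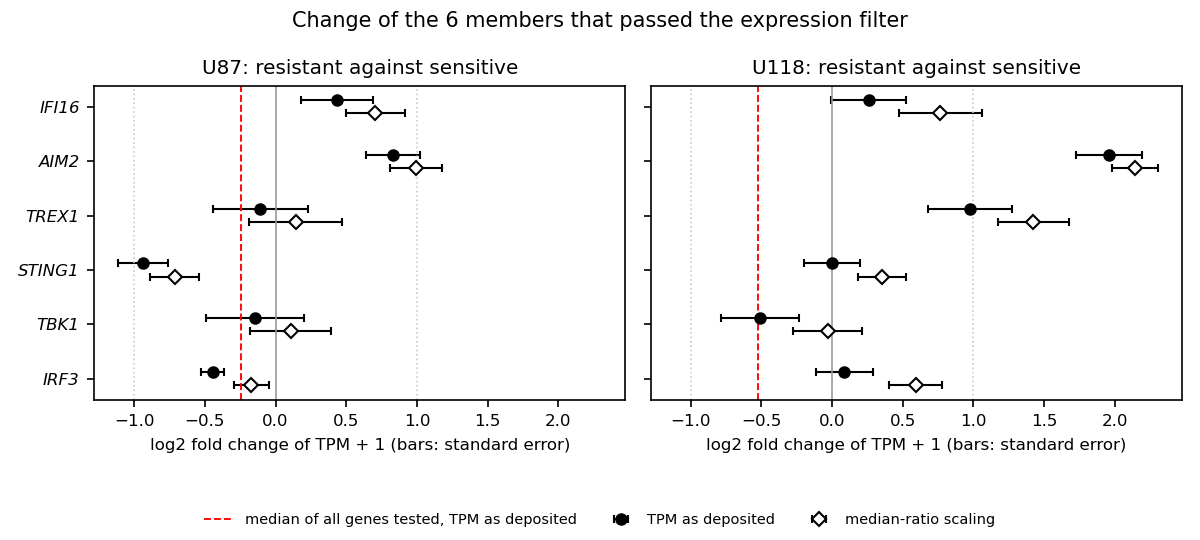
Log2 fold change of TPM + 1 between resistant and sensitive libraries (horizontal axis, bars are standard errors) of the 6 genes tested in U87 and in U118, with TPM as deposited (filled circles) and after median-ratio scaling (open diamonds). The dashed line is the median of all genes tested and the dotted lines mark the fold threshold; scaling shifts every gene to the right, and AIM2 in U118 is the only filled circle past a dotted line.

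The levels of the 6 genes in sensitive cells of the 2 lines were compared in the joint fit. STING1 was called lower in U118 sensitive than in U87 sensitive cells, by -1.24 on the log2 scale (SE 0.18, adjusted p = 8.73e-05), and was the only one of 6 called, against a background of 36.6%. IRF3 (-0.62, adjusted p = 0.00177), AIM2 (-0.76, adjusted p = 0.0105) and TREX1 (-0.94, adjusted p = 0.0271) were also lower and did not reach the fold threshold, which makes 4 of 6 with an adjusted p under 0.05 (background 59.3%). The median of all genes was 0.38 in this comparison, in the opposite direction. TBK1 (0.54, adjusted p = 0.173) and IFI16 (0.33, adjusted p = 0.318) did not pass the test.

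In the libraries labelled U118 resistant, the 6 genes were near their U87 resistant levels. None of the 6 was called, against 14.4% of 16382 genes by limma, none had an adjusted p under 0.05 (background 30%) or an unadjusted p under 0.05, and none was called by limma without a trend. The differences of U118 minus U87 ran from -0.30 for STING1 (95% confidence interval -0.69 to 0.09) to 0.37 for AIM2 (-0.11 to 0.85). The intervals of TREX1 (-0.58 to 0.86) and TBK1 (-0.53 to 0.88) still leave room for differences of nearly the size of the fold threshold. STING1 was the only one whose groups did not overlap in this comparison (background 44.8%).

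Because of the line-specific genes described above, the libraries labelled U118 resistant were further compared with U87 sensitive cells, a comparison added after those genes had been counted, which shares its U87 sensitive libraries with the comparison within U87. Here 2 of 6 were called (background 15.3%), STING1 lower by -1.24 (SE 0.18, adjusted p = 0.000212) and AIM2 higher by 1.2 (SE 0.22, adjusted p = 0.00123). TREX1 was at 0.03 (SE 0.33, adjusted p = 0.967), in place of the 0.97 found against U118 sensitive cells. IRF3 was at -0.53 (SE 0.13, adjusted p = 0.00924). Thus the sign or size of the STING1, TREX1 and IRF3 values for the libraries labelled U118 resistant depended on which sensitive cells they were compared with.

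The partners of the 8 genes were taken from 8 lists with 102 genes in all (the plot of the lists). In U87, 83 were tested, of which 2 were called higher and 8 lower, against 3.03% and 7.79% of all genes. Their median log2 fold change was -0.30, beside -0.24 for all genes. In U118, 88 were tested, of which 12 were called higher and 28 lower, against 8.64% and 26.6% of all genes, with a median of -0.52 beside -0.52. Over the lists as a whole, the medians were close to those of all genes. Median-ratio scaling changed the split of the partners, as it did that of all genes, to 4 higher and 4 lower in U87 and to 18 higher and 10 lower in U118. A few partners named only to identify a count of calls were chosen after their values were seen. In bulk libraries, fewer cells that express a gene and less of its RNA per cell cannot be told apart.

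**Figure D3:**
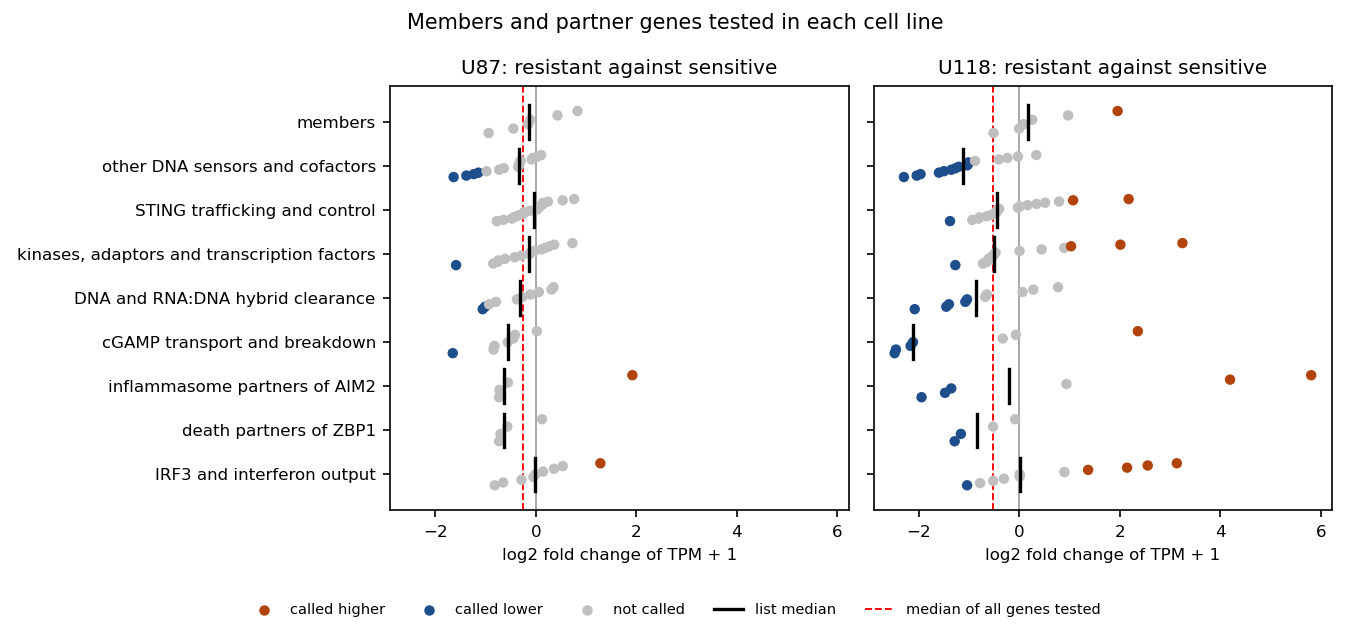
Log2 fold change of TPM + 1 between resistant and sensitive libraries (horizontal axis) of each gene tested, 1 row per list, in U87 and U118, with calls coloured, list medians as black bars and the median of all genes as a dashed line. In U118, 11 of 16 other DNA sensors and cofactors are called lower, and IL1B and PYCARD lie farthest to the right.

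Most genes tested were lower in resistant libraries, 9532 of 13845 in U87 and 11074 of 15527 in U118. Of the other DNA sensors and cofactors, 4 of 16 tested were called lower in U87, against 7.79% of all genes, and none higher, namely HMGB1, HMGB2, DHX9 and ZCCHC3. ZCCHC3, a cofactor of CGAS, was at 9.28, 9.03 and 9.73 TPM in U87 sensitive libraries and at 3.89, 3.37 and 3.83 TPM in U87 resistant libraries (log2 fold change -1.14, SE 0.13, adjusted p = 0.000878). HMGB2, a chromatin protein that binds DNA, was at 128, 246 and 161 TPM and then at 64.5, 60.1 and 72.2 TPM (-1.38, SE 0.22, adjusted p = 0.00349). HMGB1 (-1.63) has near-identical copies in the genome, so its reads are uncertain, and DHX9, a helicase, was at -1.23. In U118, 11 of 16 were called lower, against 26.6% of all genes, and none higher, with a list median of -1.12 beside -0.52 for all genes. How far the count of this list depended on library 1 labelled resistant was not tested. Under median-ratio scaling 2 of 16 were called lower in U87, against 3.81% of all genes, and 4 of 16 in U118, against 13.7% of all genes. The largest was MRE11, a double-strand break nuclease, at 17.5, 13.5 and 19.5 TPM in U118 sensitive libraries and at 2.90, 1.89 and 3.13 TPM in those labelled resistant (-2.29, SE 0.26, adjusted p = 0.000121), and at 2.18 to 6.25 TPM in U87. MNDA, another PYHIN gene, was listed at 0 in all 12 libraries, and PYHIN1 in 10, with at most 0.236 TPM.

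Of the genes of STING1 trafficking and control, none of 18 tested was called in U87. In U118, 2 of 19 were called higher, RHBDF2 and STIM1, and 1 lower, NLRX1, against 8.64% and 26.6% of all genes. Under median-ratio scaling 4 of 19 were called higher, against 14.7% of all genes, and none lower, and in U87 1 of 18 was called higher. RHBDF2, which helps STING1 leave the endoplasmic reticulum, was at 5.01, 7.53 and 5.42 TPM in U118 sensitive libraries and at 27.4, 34.3 and 29.3 TPM in those labelled resistant (2.18, SE 0.24, adjusted p = 0.000104). Its U87 values of 17.8 to 26.6 TPM lay between these groups. STIM1, a calcium sensor that retains STING1, was at 1.07 (adjusted p = 0.0248), and NLRX1, an inhibitor of STING1 signaling, at -1.38 (adjusted p = 0.0037).

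Among kinases, adaptors and transcription factors, 1 of 15 was called lower in U87 and none higher, and in U118 3 were called higher, TBKBP1, OPTN and IKBKG. Under median-ratio scaling 4 of 15 were called higher in U118, and 1 was called higher and 1 lower in U87. IKBKG, the regulatory subunit of the IκB kinase, was at 75.1, 72.0 and 77.1 TPM in U87 sensitive and at 23.8, 25.4 and 23.5 TPM in U87 resistant libraries (-1.59, SE 0.08, adjusted p = 6.93e-05), but at 24.8, 20.6 and 22.3 TPM in U118 sensitive libraries and at 39.1, 52.6 and 50.5 TPM in those labelled resistant (1.03, SE 0.21, adjusted p = 0.00391). IKBKG has a near-identical pseudogene copy, so its reads are uncertain. TBKBP1, an adaptor of TBK1, was at 1.41, 2.3 and 2.22 TPM in U118 sensitive libraries and at 22.2, 37.4 and 23.2 TPM in those labelled resistant (3.25, SE 0.28, adjusted p = 2.24e-05). In U87 TBKBP1 was at 27.3 to 30.9 TPM in sensitive and at 16.8 to 16.9 TPM in resistant libraries, so the libraries labelled U118 resistant carried it at a level near that of U87. IKBKE, the kinase most like TBK1, had a log2 fold change of -0.85 in U87 (SE 0.11, adjusted p = 0.00116) and of 0.90 in U118 (SE 0.22, adjusted p = 0.00883), neither past the fold threshold. OPTN, a TBK1 adaptor, had a log2 fold change of 2.01 in U118 (SE 0.22, adjusted p = 9.12e-05).

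Of the genes that clear DNA or RNA:DNA hybrids, 2 of 10 were called lower in U87, against 7.79% of all genes. These were SAMHD1, a nucleotide triphosphohydrolase, and BANF1, which competes with CGAS for DNA. SAMHD1 was at 7.76, 13.4 and 9.17 TPM in U87 sensitive libraries and at 4.35, 4.42 and 4.44 TPM in U87 resistant libraries (-1.01, SE 0.20, adjusted p = 0.0081). In U118, 5 of 10 were called lower, against 26.6% of all genes, namely DNASE1, APEX1, RNASEH2B, RNASEH2A and SAMHD1. The last was at 21.1 to 21.6 TPM in sensitive libraries and 7.30 to 17.1 TPM in those labelled resistant (-1.04, SE 0.32, adjusted p = 0.0234). Of the alternative settings with a fold threshold, SAMHD1 was called in 8 of 12 in U87 and in 5 of 13 in U118, where its log2 fold change lay between -1.40 and -0.56 and its adjusted p was at most 0.0892. Among single libraries left out, the call was lost in U87 without sensitive library 2 (-0.80) or resistant library 1, and in U118 without any sensitive library or without library 2 or 3 labelled resistant. None of the list was called higher in either line with TPM as deposited. Under median-ratio scaling none of 10 was called in U87, where 3.81% of all genes were called lower and 4.97% higher. In U118, 1 was then called lower and 1 higher, against 13.7% and 14.7% of all genes.

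The genes of cGAMP transport and breakdown include LRRC8D, a volume-regulated channel subunit and the largest fall of this list in both lines. It was at 9.09, 9.39 and 12.3 TPM in U87 sensitive libraries and at 4.31, 2.07 and 1.76 TPM in U87 resistant libraries (-1.65, SE 0.27, adjusted p = 0.00371). In U118 it was at 22.8 to 27.9 TPM in sensitive libraries and 2.71 to 5.30 TPM in those labelled resistant (-2.48, SE 0.26, adjusted p = 8.52e-05). ENPP1, the enzyme that breaks down cGAMP outside cells, was at 28.4 to 36.5 TPM in U118 sensitive libraries and 3.17 to 9.76 TPM in those labelled resistant (-2.45, SE 0.36, adjusted p = 0.000586), and did not pass the test in U87 (-0.41, adjusted p = 0.228). In U87, 1 of 7 was called lower, LRRC8D, and none higher, against 7.79% and 3.03% of all genes. In U118 a total of 4 of 7 were called lower and 1 higher, against 26.6% and 8.64% of all genes. The 1 called higher was LRRC8E, another channel subunit (2.36, SE 0.44, adjusted p = 0.0022). LRRC8E was at 3.23 to 8.67 TPM in U118 sensitive libraries, 16.8 to 49.0 TPM in those labelled resistant and 30.5 to 79.5 TPM in U87.

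The inflammasome partners of AIM2 were split (the plot of partner and output genes). PYCARD, the adaptor that links AIM2 to caspase 1, had 0 TPM in the 6 U87 libraries and in U118 sensitive libraries 1 and 3, at 0.147 TPM in U118 sensitive library 2, and at 18.6, 19.4 and 16.6 TPM in the libraries labelled U118 resistant (4.19, SE 0.21, adjusted p = 1.15e-06). PYCARD, and IL1B in both lines, passed the filter only through the resistant libraries, so a higher value was fixed by the filter, and their fold changes depend on the pseudocount. Those libraries thus differed in PYCARD from the 3 other groups. CASP1, the caspase of the inflammasome, was at 34.5, 30.2 and 39.1 TPM in U118 sensitive libraries and at 15, 9.63 and 11.1 TPM in those labelled resistant (-1.48, SE 0.24, adjusted p = 0.00104), and in U87 it was at 4.93 to 8.15 TPM and 3.08 to 3.75 TPM (-0.73, SE 0.19, adjusted p = 0.0237). IL1B, the cytokine that caspase 1 matures, had 0 TPM in each of the U87 sensitive libraries against 2.96, 2.58 and 2.84 TPM in U87 resistant libraries, and was called higher (adjusted p = 0.000102, and 0.000671 with no filter). In U118 IL1B was at 0.694, 0.329 and 0.927 TPM in sensitive libraries and at 107, 73.0 and 94.6 TPM in those labelled resistant (5.81, SE 0.26, adjusted p = 6.79e-07). CASP4 (-1.94) and GSDMD (-1.35), the pore-forming protein, were the others called lower in U118. In U118, 2 of 6 tested were called higher and 3 lower, against 8.64% and 26.6% of all genes. Under median-ratio scaling 3 were called higher and 1 lower, against 14.7% and 13.7% of all genes. In U87, 1 of 4 tested was called higher and none lower, against 3.03% and 7.79% of all genes.

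Of the death partners of ZBP1, none of 4 tested was called in U87, against 10.8% of all genes. In U118, 2 of 4 were called lower, RIPK1 (-1.16) and CASP8 (-1.28), against 26.6% of all genes. CASP8 was at 36.9, 33.7 and 43.1 TPM in U118 sensitive libraries and at 34.7, 8.64 and 10.7 TPM in those labelled resistant, so its groups overlapped. Under median-ratio scaling none was called in U118, where 13.7% of all genes were called lower. MLKL, the necroptosis executor, was at 20.9, 25 and 22.7 TPM in U87 sensitive libraries and at 13.3, 12.6 and 14.2 TPM in U87 resistant libraries (-0.73, SE 0.12, adjusted p = 0.0033, short of the fold threshold). In U118 it was at -0.52 with an adjusted p of 0.111.

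Of the genes that IRF3 and interferon switch on, 1 of 9 tested was called higher in U87 and none lower, against 3.03% and 7.79% of all genes. Their median was -0.0078 beside -0.24 for all genes. IFNB1, the interferon that IRF3 induces first, and IFNA1 were listed at 0 in all 12 libraries. IFNL1, a lambda interferon, was listed at 0 in 9 libraries and was at 0.260, 1.40 and 1.09 TPM in those labelled U118 resistant. CCL5, a chemokine target of IRF3, was the 1 called, and in both lines it passed the filter only through the resistant libraries, so it could be called in that direction alone. It was at 0.378, 0.174 and 0.314 TPM in U87 sensitive libraries and at 2.24, 2.51 and 1.71 TPM in U87 resistant libraries (1.29, SE 0.15, adjusted p = 0.000911). ISG15, an ubiquitin-like protein induced by interferon, was at 29.8, 31.3 and 25.8 TPM and then at 31.0, 28.4 and 26.9 TPM, a difference of -0.0078 (95% confidence interval -0.28 to 0.26). In U118, 4 of 11 were called higher, OASL, HERC5, CCL5 and IFIT2, and 1 lower, MX1, against 8.64% and 26.6% of all genes. Under median-ratio scaling 5 were called higher and none lower, against 14.7% and 13.7% of all genes. OASL was at 2.02, 1.94 and 1.70 TPM in U118 sensitive libraries and at 17.2, 26.3 and 31.7 TPM in those labelled resistant (3.14, SE 0.27, adjusted p = 2.4e-05), above the U87 range of 5.45 to 9.53 TPM. HERC5 was at 0.182, 0.0739 and 0.165 TPM and then at 7.84, 4.48 and 5.20 TPM (2.56, SE 0.23, adjusted p = 2.7e-05), overlapping the U87 range of 5.53 to 12.7 TPM. HERC5 likewise entered the U118 test only through the libraries labelled resistant, and with no filter its adjusted p was 0.00169. CCL5 was at 0.0635, 0.0723 and 0 TPM and then at 1.13, 6.0 and 5.62 TPM (2.15, SE 0.41, adjusted p = 0.00242). CXCL10 and CXCL11, interferon-induced chemokines, were listed at 0 in the other 9 libraries. In those labelled U118 resistant CXCL10 was at 0.438, 0.319 and 0.709 TPM and CXCL11 at 0.278, 0.459 and 0.448 TPM. ISG15 overlapped between the U118 groups (-0.31, adjusted p = 0.442).

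**Figure D4:**
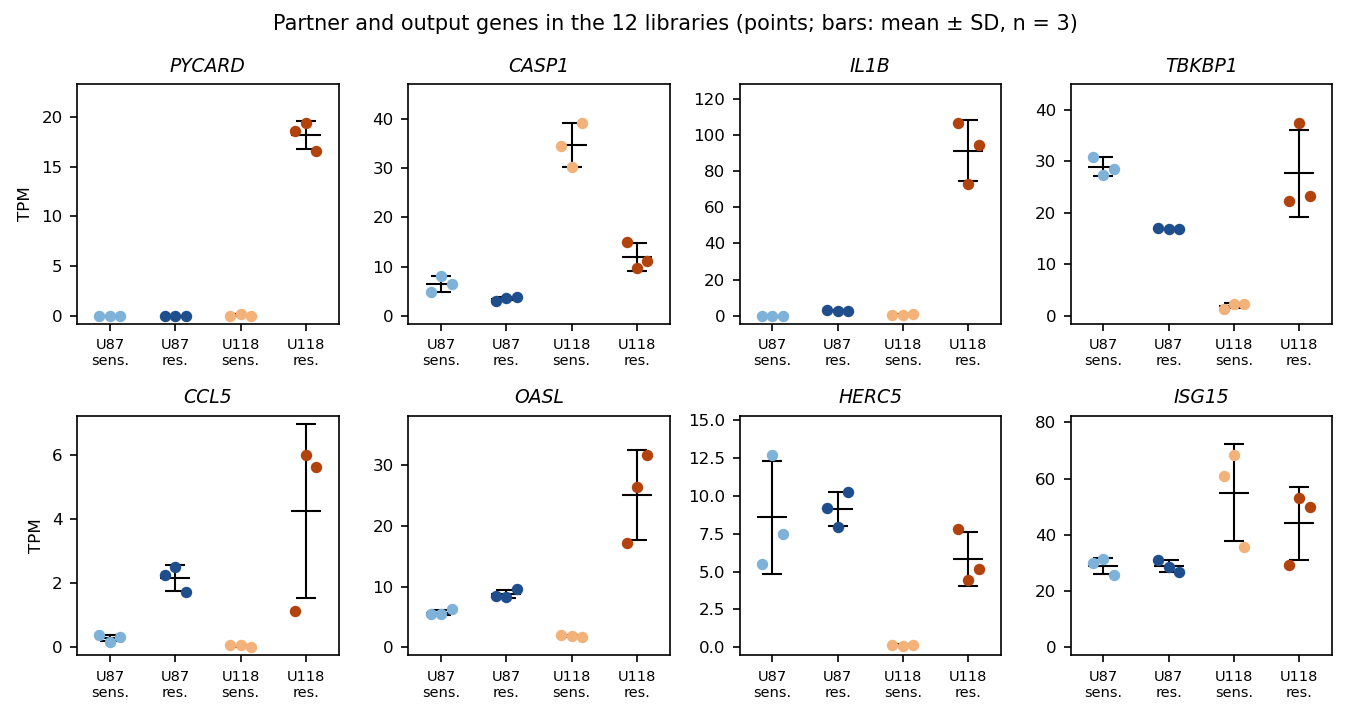
TPM (vertical axis, linear, a separate scale in each panel) of 8 partner and output genes in the 12 libraries, 1 point per library, with the group mean and SD (n = 3) as bars. PYCARD is high in the libraries labelled U118 resistant, at 16.6 to 19.4 TPM against at most 0.147 elsewhere, CASP1 is lower there than in U118 sensitive cells, and ISG15 overlaps between the 2 groups of each line.

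Over the 4 groups, AIM2 and STING1 had the widest ranges of mean log2(TPM + 1), 1.96 and 1.24, and IFI16 the narrowest of the 6 tested, 0.58. The genes whose profile over the 12 libraries was nearest were found among 13216 genes by the mean absolute difference of log2(TPM + 1) after centring each gene on its own mean. For AIM2 they were PKIB (0.171), APOBEC3C (0.173) and C9orf72 (0.176). For STING1 they were DUSP22 (0.129), RAB5IF (0.132) and ZDHHC3 (0.135), the last of which belongs to the list of STING1 trafficking genes. APOBEC3C, a cytidine deaminase, had group means of 50.7 and 83.9 TPM in U87 sensitive and resistant cells. In U118 sensitive cells and libraries labelled U118 resistant its means were 26.7 and 87.1 TPM. PKIB and C9orf72 also had lower means in sensitive than in resistant groups of each line. This order, which is that of AIM2, follows from choosing the genes by nearness to the AIM2 profile.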

How the data were processed

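mRNA-seq libraries of U87 and U118 sensitive and resistant cells (3 per group, 12 in all) were analysed from 2 tables of TPM deposited by the authors, with 58174 Ensembl identifiers each. Per the submitters' processing notes, FastQC 0.11.2, Trimmomatic 0.36, HISAT2 2.0 and bedtools 2.26.0 were used with GRCh38; the quantification tool and annotation were not given in the sources used here. TPM keeps no read counts, so depth and detection limits are unknown and precision is limited by 3 libraries per group. Nothing states that replicates were separate cultures, so p-values measure only the spread between libraries. Groups were taken from the labels.

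The log2(TPM + 1) values were entered into limma 3.58.1 (eBayes with trend) under R 4.3.3, within each line (6 libraries) and jointly (12 libraries, for the difference between lines and comparisons across lines), after keeping genes at 1 TPM in at least 3 libraries. The fit was tested on simulated data. Alternatives were a pseudocount of 0.1, no filter, median-ratio scaling, a filter at a mean of 10 TPM, TPM without mitochondrially encoded genes, the replicate number as a block, no trend, no fold threshold, and each library left out. Named partners were a set list of 11 and, in each line, up to 10 with the largest called change without overlap. The genes, lists and rules were chosen with earlier results of these data known. Positions are from GENCODE release 29 (GRCh38), in which 57836 identifiers matched. Promoter windows are from RefSeq (GRCh38.p14). Python 3.11.15 with pandas 2.3.3 joined the tables, and matplotlib 3.10.9 drew the figures. Some results for single genes are not reported here.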

Additional observations from a re-analysis of the deposited data

Results flagged for a closer look

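The genes listed here are those of the 8 and of the named partners for which the change between resistant and sensitive libraries differed between the lines by 1 or more on the log2 scale, with an adjusted p under 0.05, in the joint limma fit of 12 libraries (values are the log2 fold change in U118 minus that in U87, with the limma adjusted p). They rest on the libraries labelled U118 resistant, whose line-specific genes resembled U87. Among the DNA sensing genes this held for AIM2 (1.13, adjusted p = 0.0127), while STING1 (0.94, adjusted p = 0.0114) and IRF3 (0.53, adjusted p = 0.0431) differed by less than that size. Over all 88 partners tested, 15 were called higher and 17 lower for this difference, beside 30.5% of all genes called in either direction. The named ones therefore do not show its balance. Among the named partners the difference was positive for PYCARD (4.19), which was listed at 0 in every U87 library, TBKBP1 (3.99), IL1B (3.89), which was listed at 0 in every U87 sensitive library so that its value depends on the pseudocount, LRRC8E (3.20), IKBKG (2.62), OASL (2.60), HERC5 (2.41), RHBDF2 (1.93) and IKBKE (1.74), and negative for ENPP1 (-2.04) and MRE11 (-1.96). The largest adjusted p among these partners was 0.00455, for ENPP1. PYCARD passed the joint filter only through the libraries labelled U118 resistant, so its positive difference was fixed by the filter.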

How the results depend on the processing

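Of the called counts, 84 alternatives stayed within 1.5 times the main count and 33 did not. Of single-gene values, 974 kept direction and side of the threshold, 47 passed it in addition, 36 no longer passed it and 24 changed sign; the cause was not tested. TPM gives no depth, so limits from depth could not be set.

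Genes of the 8 called in U87 (0) were 3 without a fold threshold, 2 with a pseudocount of 0.1, and 0 to 1 with a library left out (1 without U87 sensitive library 3 or U87 resistant library 3); partners called in U87 (10) were 36 without a fold threshold and 5 at a mean of 10 TPM. In U118 (1) they were 2 without a fold threshold, with a pseudocount of 0.1, under median-ratio scaling or without mitochondrial genes, 0 at a mean of 10 TPM (AIM2 is then not tested), 0 to 2 with a library left out (0 without library 1 or 2 labelled U118 resistant, 2 without U118 sensitive library 1), and 2 when set against U87 sensitive cells. For the difference between lines (1) they were 3 without a fold threshold or under median-ratio scaling, 2 with a pseudocount of 0.1 or without mitochondrial genes, 0 at a mean of 10 TPM (AIM2 is then not tested), and 0 to 3 with a library left out (0 without library 1 labelled U118 resistant, 2 without U87 sensitive library 3 or U87 resistant library 1 or 3, 3 without U118 sensitive library 1). Between sensitive cells (1) they were 4 without a fold threshold, 3 with a pseudocount of 0.1, 2 under median-ratio scaling or without mitochondrial genes, 0 at a mean of 10 TPM (STING1 is then not tested), and 1 to 2 with a library left out (2 without U87 sensitive library 2 or U118 sensitive library 1). Over all genes tested without a fold threshold, calls higher and lower were 1306 and 4107 in U87 and 1893 and 6068 in U118. They were 2537 and 3699 for the difference between lines, and 6622 and 3091 between sensitive cells. With a pseudocount of 0.1 they were 598 and 1530 in U87, and 1501 and 4832 in U118. They were then 2153 and 3055 for the difference, and 4969 and 2196 between sensitive cells.

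With the replicate number as a block, genes called for the difference between lines were 2, and no other count of the 8 changed. The block left the all-gene medians within lines as they were. It moved that between resistant groups from 0.13 to 0.33 and that between sensitive groups from 0.38 to 0.59. Blocked values across lines, such as 0.038 for IRF3 between resistant groups, are therefore not the same difference of group means, and no conclusion is drawn from them. Same-numbered libraries correlated at 0.01, -0.07 and -0.04 in U87 and at 0.14, 0.05 and 0.10 in U118, where each correlated best with its own number, so the pairing was taken from neither line.

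Signs that changed were of small values. Median-ratio scaling gave TBK1 0.11, TREX1 0.14 and ISG15 0.26 in U87, STING1 0.35 and ISG15 0.20 in U118, and IFI16 0.012 for the difference. Without mitochondrial genes TREX1 was 0.015 and ISG15 0.13 in U87 and STING1 0.14 in U118. A pseudocount of 0.1 gave STING1 0.00097 in U118. With a library left out, U87 values ranged from -0.36 to 0.26 for TBK1, from -0.44 to 0.15 for TREX1, from -0.086 to 0.049 for ISG15 and from -0.098 to 0.44 for HERC5, STING1 in U118 from -0.089 to 0.083, IFI16 for the difference from -0.42 to 0.11, and TREX1 between resistant groups from -0.12 to 0.47.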

Other observations

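Markers of other cell types differed between groups beside the DNA sensing genes. The 8 fibroblast markers were matrix and receptor genes of mesenchymal cells. They summed to 240 to 243 TPM in U87 sensitive and 454 to 539 TPM in U87 resistant libraries. In U87, 4 of 5 tested were called higher, against 3.03% of all genes. In U118 the 8 markers summed to 1323 to 1710 TPM in sensitive libraries and 301 to 674 TPM in those labelled resistant. There 7 of 8 were called lower, against 26.6% of all genes. PDGFRA and DCN passed the U118 filter only through the sensitive libraries, where they were high, so they could be called in that direction alone. THY1, a surface glycoprotein, was at most 0.127 TPM in U87, 213 to 459 TPM in U118 sensitive libraries and 51.2 to 104 TPM in those labelled resistant, so that it stayed apart from U87, whereas PDGFRA, a growth factor receptor, was at 71.8 to 88.3 TPM in U118 sensitive libraries and at most 0.311 TPM in all other libraries. CSF1R, a macrophage growth factor receptor, was at 1.34 to 1.43 TPM in U118 sensitive libraries and 9.47 to 15.2 TPM in those labelled resistant, and ITGAM, a myeloid integrin, at 0 to 0.175 TPM and 0.659 to 1.45 TPM, while the defining leukocyte marker PTPRC stayed at or below 0.0689 TPM in every library.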
